A study of Homo sapiens with 3 samples.

Results

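The Polycomb genes described here are EZH2, EZH1, EED, SUZ12, RBBP4, RBBP7, JARID2, BMI1, RNF2 and CBX2, chosen by name as subunits of Polycomb complexes 1 and 2. They are 10 of the 43317 gene names that have a probe on the array, with 16 probes and 34 spots on each array, and all 10 were among the 17061 genes bright enough to be tested. The cells were 22RV1, a human prostate cancer line that expresses SPINK1, a secreted inhibitor of trypsin-like proteases. Stable lines carried 1 of 3 lentiviral pGIPZ hairpins against SPINK1 (shSPINK1-1, shSPINK1-2 and shSPINK1-3) or a scrambled hairpin (shSCRM), and both kinds grew in RPMI-1640 with 10% fetal bovine serum and 1 µg/mL puromycin. Each hairpin had 1 two-color array, with shSPINK1 RNA in Cy5 and shSCRM RNA in Cy3, so a log2 ratio above 0 means a higher level in shSPINK1 cells. No array had the dyes swapped, so a dye effect and a hairpin effect cannot be told apart. All 3 arrays lay on 1 slide, were scanned once and had shSCRM cells as their reference, so the errors measure the spread between these 3 arrays and leave out that of the control.

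Polycomb complex 2 places methyl groups on lysine 27 of histone H3, a mark of silenced genes. Its enzyme is EZH2 or the related EZH1, which is active only when bound to EED and SUZ12, with RBBP4 or RBBP7 as a histone-binding partner. Polycomb complex 1 places ubiquitin on histone H2A through RNF2 or RING1, and holds a PCGF protein such as BMI1 and, in its classical form, a CBX protein that reads the methyl mark. In prostate cancer EZH2 is best known for high levels in metastatic and neuroendocrine disease.

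SPINK1, the targeted gene, fell on every array. It had log2 ratios of -3.71, -3.65 and -3.89 with hairpins 1, 2 and 3, which was 13.5-fold lower (SE 0.06 on the log2 scale, n = 3, adjusted p = 5.99e-07, limma). Among gene spots, 41.3% to 46.8% were well above background in Cy5 and 38.8% to 42.6% in Cy3, and no gene spot was saturated. All 11 luminal prostate markers had a probe that passed the brightness filter, with a median brightness of 3057 in shSCRM cells. Of 7 fibroblast, 5 endothelial and 5 blood cell markers with a probe, 3, 2 and 3 passed, and COL1A2, COL3A1, PECAM1, KDR, CD3E and HBB were not well above background. The fibroblast genes LUM, DCN and COL1A1 did pass. LUM had log2 ratios of -0.48, -0.45 and 0.05 with hairpins 1, 2 and 3 (adjusted p = 0.100, limma). DCN had -0.59, -0.41 and 0.17 (adjusted p = 0.200), and COL1A1 had -0.07, 0.02 and 0.02 (adjusted p = 0.903).

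The Polycomb genes differed little from the control beside the fall of SPINK1. Their mean log2 ratios lay between -0.24 for CBX2 and 0.19 for EZH2, with a median of -0.06 against -0.01 over all genes tested, where the 10th and 90th percentiles were -0.21 and 0.15. RNF2 was the only member past an adjusted p of 0.05 in limma, and none was past it in the higher direction. Of all genes tested, 8.70% were called lower and 4.77% higher at that threshold, so 1 lower call among 10 members was close to the share of all genes. None of the members was both called and beyond 0.5 on the log2 scale. Of all genes, 0.393% were both as lower and 0.322% as higher. At an unadjusted p under 0.05, 3 members were lower (RNF2, RBBP4 and CBX2) and 2 were higher (EZH2 and EED), against 18.4% and 11.3% of all genes. EZH1, RBBP4 and RNF2 were below 0 on all 3 arrays, EZH2 and EED were above 0 on all 3, and the other 5 members had arrays on both sides of 0.

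**Figure D1:**
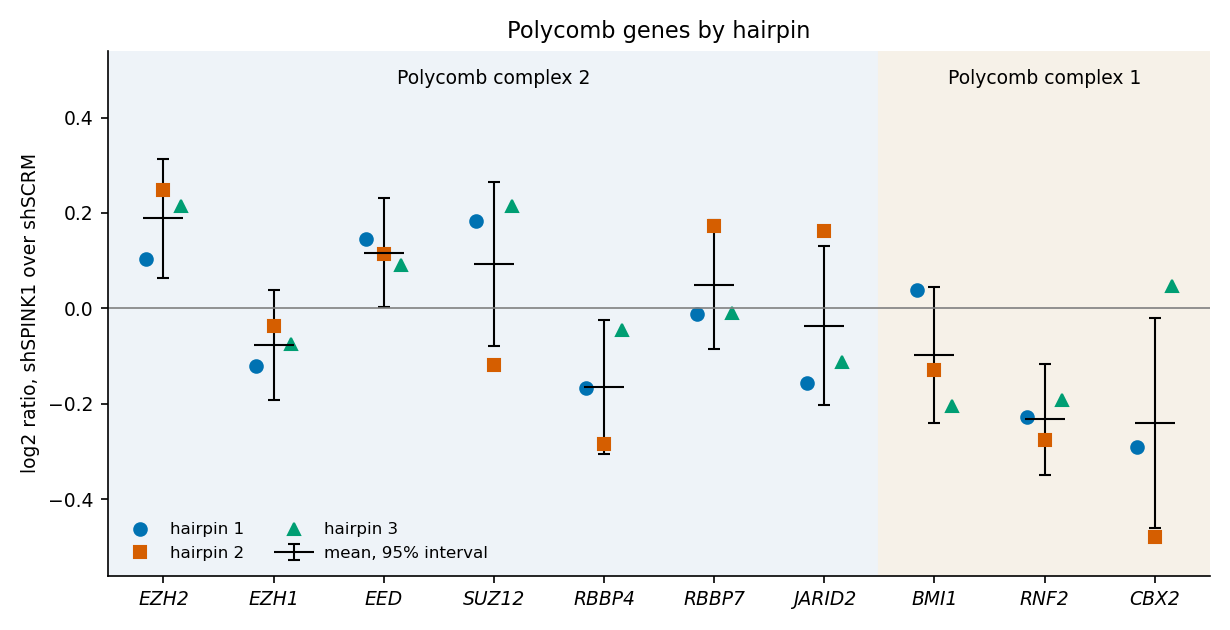
Log2 ratio of shSPINK1 over shSCRM cells (y axis) for the 10 Polycomb genes (x axis), each by its brightest probe, with 1 marker per hairpin, a horizontal bar for the mean of the 3 arrays and a line for the 95% interval of the limma fit. EZH2, EED, RBBP4 and RNF2 have all 3 markers on 1 side of 0 and an interval clear of it, whereas SUZ12, RBBP7 and JARID2 have hairpin 2 on the opposite side of 0 from hairpins 1 and 3. The ratios are scaled by loess, and under median centring all 10 means lie below 0, between -0.59 and -0.17.

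These directions are on the loess scale, which follows the dye difference along brightness. Centring each array on its median, with no such curve, set the median of the genes tested at -0.23 and called 60.6% of them lower, all 10 members included. Less that median, CBX2 was at -0.37, RBBP4 at -0.28, RNF2 at -0.27, BMI1 at -0.13 and JARID2 at -0.09, whereas RBBP7, SUZ12, EED, EZH1 and EZH2 lay between -0.06 and 0.06.

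EZH2, the catalytic subunit of complex 2, leaned higher in shSPINK1 cells without passing the threshold. Its log2 ratios were 0.10, 0.25 and 0.21 with hairpins 1, 2 and 3. All 3 arrays lay above 0, with hairpin 1 the lowest. The mean of 0.19 (SE 0.05, n = 3, 95% interval 0.06 to 0.31) was a 1.14-fold higher level with an adjusted p of 0.0569 in limma, and it stood at the 92.9th percentile of all genes tested. Without hairpin 1 the mean was 0.23 and the adjusted p was 0.0221, which was then past the threshold. That setting called 7.53% of all genes higher, against 4.77% with all 3 arrays. With median centring the mean turned to -0.17, which was 0.06 above the median of all genes on that scale. Feature Extraction, the scanner's own software, gave 0.19, 0.34 and 0.29 for the same spots, all 3 above 0.

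The single EZH2 probe matches NM_004456 and lies on the minus strand at chr7:148504505-148504564 (hg19). Its spot was bright, at 1080, 884 and 939 in Cy5 and 1320, 1070 and 1200 in Cy3 with hairpins 1, 2 and 3, as mean pixel brightness before any correction. Cy5 was the dimmer channel at this spot on all 3 arrays, and the loess curve takes out the dye difference usual at that brightness, so a ratio above 0 here means a spot less dim in Cy5 than others like it.

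EZH2 is a textbook target of E2F factors, which act at cell cycle promoters, so the RefSeq promoter windows of the members (GRCh38.p14, 250 bases before to 50 after a transcription start) were searched for E2F-type words. The words were TTTCCCGC, TTTCGCGC, TTTGCCGC and TTTGGCGC on either strand. The EZH2 window at the upstream of its 2 starts held 1, whose first letter is the 2nd base of the transcript, and 4 CCAAT boxes (CCAAT on either strand) at -94, -66, -47 and -13. CCAAT was present in 34.6% of all 35116 windows and 4 or more copies were present in 0.991%, and an E2F-type word was present in 3.31%. The other members with an E2F-type word were SUZ12, at -189, and EZH1, at -115, which makes 3 of the 9 members with a window against 3.99% of the 27305 genes with one. The windows that held the word had a G and C content of 74.7% for EZH2, 73.0% for SUZ12 and 67.0% for EZH1. The median over all windows was 58.7%, and the share among windows of like G and C content was not counted. RNF2, BMI1, EED, RBBP4, RBBP7 and JARID2 had windows with no such word, and no window was found for CBX2. The stretches that hold the words are shown for these 3 members, 5′ to 3′ on the gene's strand, with E2F-type words and CCAAT boxes in capitals. EZH2 and SUZ12 had means above 0 and EZH1 below, while EED and RBBP7 had means above 0 without such a word. A link of the words to the ratios was not tested. The EZH2 stretch lies on the minus strand at chr7:148884283-148884395, the SUZ12 stretch on the plus strand at chr17:31936792-31936851 and the EZH1 stretch on the minus strand at chr17:42745122-42745181.
EZH2: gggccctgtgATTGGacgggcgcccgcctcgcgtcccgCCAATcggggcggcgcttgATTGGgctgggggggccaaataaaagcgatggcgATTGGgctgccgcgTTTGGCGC
SUZ12: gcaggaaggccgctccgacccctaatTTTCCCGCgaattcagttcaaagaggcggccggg
EZH1: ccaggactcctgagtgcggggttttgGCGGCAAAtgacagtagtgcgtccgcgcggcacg
The EZH2 stretch was cut to hold its 4 boxes and the word at the start, over 113 bases. The EZH1 and SUZ12 stretches were cut to 60 bases around a word. The SUZ12 window also holds a CCAAT box, at -31, outside its stretch. CCAAT was present in 8 of the 14 member windows, in 6 members. A match of letters is a description of the sequence and does not show that a factor binds there.

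Among the called genes whose pattern over the hairpins was nearest to EZH2, by the Euclidean distance of their 3 log2 ratios, were NBPF1 at 0.0234 and ENST00000436473 at 0.0285. NBPF1 had log2 ratios of 0.12, 0.25 and 0.23 and an adjusted p of 0.0476 in limma, just inside the threshold that EZH2 just missed. With 3 arrays to compare, such a distance is a description only.

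EZH1, the second methyltransferase, had a dim spot and did not pass the test. Its log2 ratios were -0.12, -0.04 and -0.07 with hairpins 1, 2 and 3, a mean of -0.08 (SE 0.05, n = 3, adjusted p = 0.346, limma). All 3 arrays were below 0, and the 95% interval from -0.19 to 0.04 included 0. Brightness was 38.7, 41.9 and 34.5 in Cy5 and 67.1, 69.1 and 61.9 in Cy3, yet the spot was well above background in both channels of every array. At such brightness the offset of 50 that is added to both channels draws a ratio towards 0, and Feature Extraction, which adds none, gave -0.40, -0.13 and -0.23. The probe (NM_001991) lies on the minus strand at chr17:40852674-40852733 (hg19).

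The core partners of the enzyme did not move as a set. EED, the subunit that reads the methyl mark and stimulates the enzyme, had log2 ratios of 0.15, 0.11 and 0.09. The 3 values were close together, with an SD of 0.03 that 7.43% of all genes matched or undercut, and the mean was 0.12 (SE 0.05, n = 3, 95% interval 0.003 to 0.23, adjusted p = 0.158). With median centring EED was at -0.24, 0.01 below the median of all genes. Its probe (NM_152991, plus strand, chr11:85989629-85989688, hg19) was bright, at 1410, 1140 and 1130 in Cy5 and 1660, 1510 and 1570 in Cy3.

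SUZ12, the scaffold of complex 2, split by hairpin. It had log2 ratios of 0.18 and 0.22 with hairpins 1 and 3 and -0.12 with hairpin 2, which gave a mean of 0.09 (SE 0.07, n = 3, adjusted p = 0.445) that turned to -0.26 under median centring, 0.03 below the median of all genes. The SD of 0.18 over the arrays was as wide as or wider than that of 90.1% of all genes, whose median SD was 0.0863. SUZ12 has 1 probe (NM_015355, plus strand, chr17:30327536-30327595, hg19) that is spotted 10 times on each array, so the error within an array is known. After outlier spots were left out, 9 of 9 spots with hairpin 1 lay above 0, from 0.10 to 0.26, and 10 of 10 with hairpin 3, from 0.13 to 0.31. With hairpin 2 none of 10 spots was above 0, and they ran from -0.17 to -0.03. The spots of hairpin 2 did not overlap those of the other arrays. How many of the 300 probes with 8 or more spots show such a gap was not counted. The spot SDs of 0.04, 0.05 and 0.06 were close to the median over these probes, 0.0529 to 0.0556. Mean brightness was 1088, 776 and 933 in Cy5 and 1270, 1222 and 1191 in Cy3, so the Cy5 channel was lowest with hairpin 2.

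RBBP7, a histone-binding subunit that is also spotted 10 times, set hairpin 2 apart in the opposite direction. The log2 ratios were -0.01, 0.17 and -0.01 with hairpins 1, 2 and 3, a mean of 0.05 (SE 0.06, n = 3, adjusted p = 0.613). All 10 spots with hairpin 2 were above 0, from 0.09 to 0.23, while the spots of hairpin 1 ran from -0.10 to 0.07 and those of hairpin 3 from -0.10 to 0.05. Here too, the share of repeated probes with such a gap was not counted. The mean turned to -0.01 without hairpin 2 and to -0.29 under median centring, 0.06 below the median of all genes. The probe (NM_002893, minus strand, chrX:16863010-16863069, hg19) had a brightness of 2828, 2792 and 2319 in Cy5 and 3632, 3492 and 3437 in Cy3. The repeat spots share 1 labelled RNA per array, so they measure the error of spotting and reading and do not count as replicates of a hairpin.

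**Figure D2:**
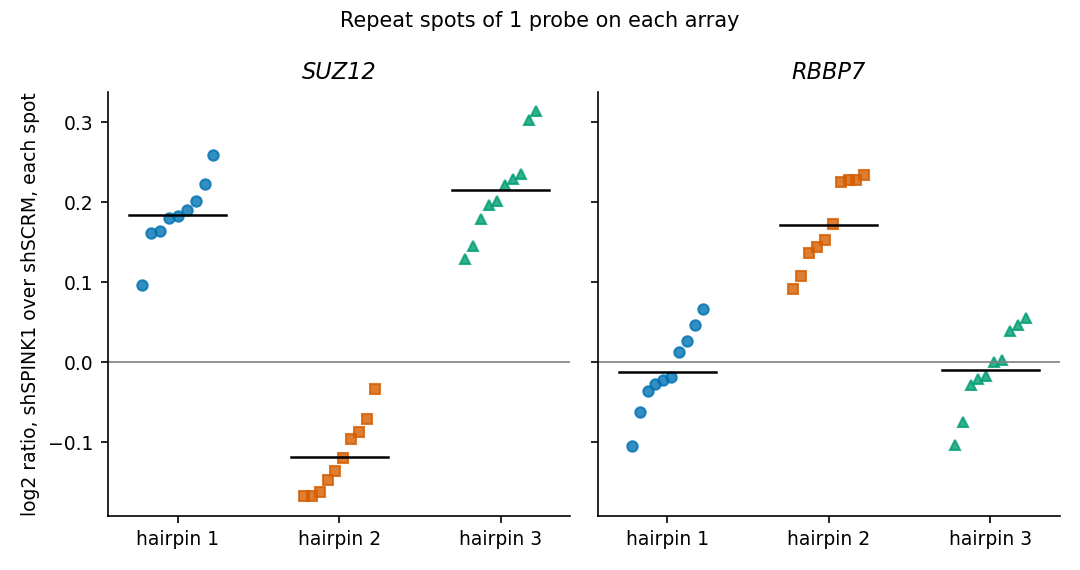
Log2 ratio of shSPINK1 over shSCRM cells (y axis) at each repeat spot of the SUZ12 probe (left) and the RBBP7 probe (right), by hairpin (x axis), with spots in ascending order and a bar for their mean. The SUZ12 spots of hairpin 2, from -0.17 to -0.03, lie below all those of hairpins 1 and 3, and the RBBP7 spots of hairpin 2, from 0.09 to 0.23, lie above all those of hairpins 1 and 3. How many other repeated probes show such a gap was not counted. With median centring both gene means are below 0, at -0.26 and -0.29.

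RBBP4, the close relative of RBBP7, has 4 probes, all of which match NM_005610 on chromosome 1 (plus strand, hg19). The brightest, A_23_P326691 at chr1:33145808-33145867, stood for the gene with log2 ratios of -0.17, -0.28 and -0.05. All 3 arrays were below 0, and the mean was -0.17 (SE 0.06, n = 3, 95% interval -0.31 to -0.02, adjusted p = 0.114). A_33_P3232562, at chr1:33145595-33145654, had -0.24, -0.35 and -0.29 and passed the threshold when every kept probe was tested on its own (mean -0.29, SE 0.05, adjusted p = 0.0139). A_24_P468810, at chr1:33151434-33151493, had -0.16, -0.06 and -0.10. A_33_P3338559, at chr1:33146199-33146258, had -0.08, -0.07 and 0.19 and was the only 1 of the 4 with an array above 0. The brightness of the 4 probes in Cy5 ran from 431 to 2910 and in Cy3 from 678 to 3920. A test of the brightest probe against the next brightest, A_33_P3338559, on the same arrays gave a difference of -0.18 (SE 0.06, adjusted p = 0.0846 over the 3562 genes with 2 or more kept probes), which did not pass.

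JARID2, a DNA-binding subunit that recruits complex 2, also differed in sign with hairpin 2. It had log2 ratios of -0.16, 0.16 and -0.11 with hairpins 1, 2 and 3, a mean of -0.04 (SE 0.07, n = 3, adjusted p = 0.782). It thus had hairpin 2 alone on the other side of 0, as SUZ12 and RBBP7 did, a pattern that 15.3% of all genes showed for hairpin 2, 20.0% for hairpin 1 and 14.5% for hairpin 3. The sign of the JARID2 mean was not stable, since the mean was 0.03 with Feature Extraction, 0.02 in the authors' table and 0.003 by loess without background correction. The probe (NM_004973, plus strand, chr6:15521805-15521864, hg19) had a brightness of 137, 138 and 125 in Cy5 and 221, 183 and 211 in Cy3.

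RNF2, the ubiquitin ligase of complex 1 also known as RING1B, was the only member that passed the test, as lower in shSPINK1 cells. Its brightest probe, A_24_P199500, had log2 ratios of -0.23, -0.28 and -0.19 with hairpins 1, 2 and 3. The 3 arrays were close together, with an SD of 0.04 that 16.7% of all genes matched or undercut. The mean of -0.23 (SE 0.05, n = 3, 95% interval -0.35 to -0.12, adjusted p = 0.0260) was a 1.17-fold lower level. The call was lost without hairpin 2 (adjusted p = 0.111) or without hairpin 3 (adjusted p = 0.106), and in all it held under 5 of 11 alternatives, with means from -0.50 to -0.12, all below 0.

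The other RNF2 probe did not show the difference. A_23_P85543 had log2 ratios of 0.04, 0.02 and -0.09, a mean of -0.01 (adjusted p = 0.930 when every kept probe was tested). Both probes match NM_007212 on the plus strand of chromosome 1 (hg19), A_23_P85543 at chr1:185069031-185069090 and A_24_P199500 further 3′ at chr1:185071124-185071183. Brightness was 83.5, 64.7 and 61.2 in Cy5 and 118, 98.7 and 109 in Cy3 for A_23_P85543, and 120, 89.4 and 98.4 in Cy5 and 205, 176 and 183 in Cy3 for A_24_P199500. The difference between them on the same arrays was -0.26, -0.30 and -0.10, a mean of -0.22 (SE 0.06) with an adjusted p of 0.0521, a test in which 16.8% of the 3562 genes passed. The mean of both probes was -0.12 (adjusted p = 0.131), so the RNF2 call rests on the choice of probe. The probe that stayed near 0 is shown, 60 bases long and with no part marked.
A_23_P85543: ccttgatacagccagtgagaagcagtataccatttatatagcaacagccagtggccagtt

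BMI1, the PCGF4 subunit of complex 1 and a factor of stem cell self-renewal, did not pass the test. Its brighter probe, A_23_P314115, had log2 ratios of 0.04, -0.13 and -0.20, a mean of -0.10 (SE 0.06, n = 3, adjusted p = 0.329). Hairpin 1 alone was above 0. A_24_P303989 had -0.02, 0.02 and 0.03. Its 60 bases span 409 bases of the genome (chr10:22617587-22617995, plus strand, hg19), so it reads across an exon junction, and it is shown because only spliced RNA holds it whole.
A_24_P303989: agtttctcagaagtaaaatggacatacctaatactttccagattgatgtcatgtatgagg
This junction probe was dim, at 35.4, 36.2 and 32.7 in Cy5 and 55.6, 57.7 and 53.5 in Cy3, where the offset of 50 draws ratios towards 0. Feature Extraction gave it -0.05, 0.13 and 0.16, and gave the brighter probe 0.10, -0.16 and -0.31, so the 2 probes had opposite signs on each array. A_23_P314115 (chr10:22619577-22619636) had 123, 91.6 and 89.8 in Cy5 and 169, 157 and 170 in Cy3. The difference between the probes was -0.11 (SE 0.07, adjusted p = 0.328).

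CBX2, a reader of the lysine 27 mark, had the lowest mean of the members and the widest spread. Log2 ratios were -0.29 and -0.48 with hairpins 1 and 2 and 0.05 with hairpin 3. The mean was -0.24 (SE 0.09, n = 3, 95% interval -0.46 to -0.02, adjusted p = 0.137), and its SD of 0.27 was wider than that of all but a few percent of genes, at the 97.1st percentile. Without hairpin 3 the mean was -0.38 with an adjusted p of 0.0561, and without hairpin 2 it was -0.12 with an adjusted p of 0.475. The fibroblast genes LUM and DCN, given above, likewise had hairpins 1 and 2 below 0 and hairpin 3 above. Hairpin 3 alone was on the other side of 0, in either direction, in 14.5% of all genes. COL1A1, also given above, had hairpin 1 alone below 0, and the part of the fibroblast genes in the result was not tested. The probe in use, A_33_P3423949 (NM_005189, plus strand, chr17:77761302-77761361, hg19), had a brightness of 583, 409 and 628 in Cy5 and 961, 851 and 908 in Cy3. A second probe, A_33_P3423954, which matches another transcript (NM_032647, chr17:77755889-77755948), was well above background in Cy5 on 1 array and in Cy3 on none, so it was not tested. Its log2 ratios were 0.13, -0.02 and 0.06.

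**Figure D3:**
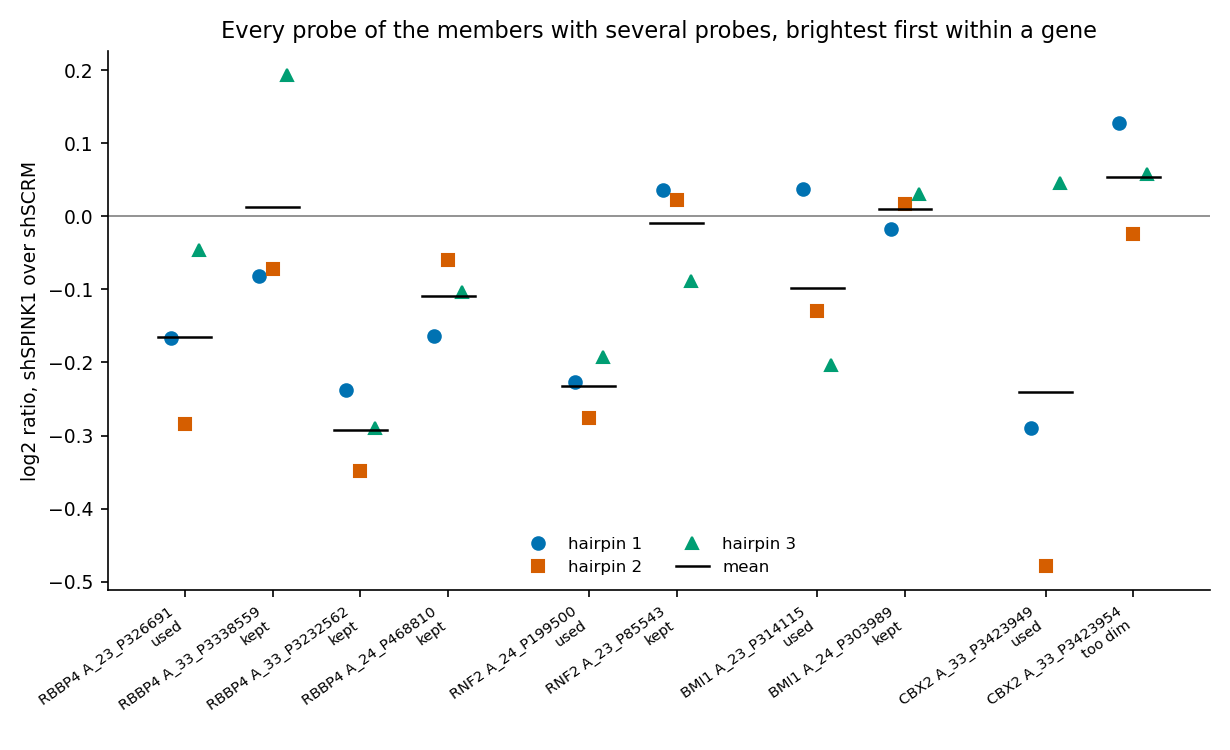
Log2 ratio of shSPINK1 over shSCRM cells (y axis) for every probe of the members that have several (x axis, brightest first within each gene), with 1 marker per hairpin and a bar for the mean, where "used" marks the probe that stands for its gene, "kept" a probe that passed the brightness filter and "too dim" one that did not. The RNF2 probe in use has a mean of -0.23 and its second probe -0.01, and the 4 RBBP4 probes have means from -0.29 to 0.01.

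Other subunits of the complexes were examined through lists that hold the remaining known partners. For these and the lists that follow, 8.70% of all genes tested were lower and 4.77% higher. At an unadjusted p under 0.05 the shares of all genes were 18.4% and 11.3%. Of 9 further accessory subunits of complex 2, 1 was lower and none was higher in limma (2 and 0 at an unadjusted p under 0.05), and the median was -0.07. That gene was C17orf96, now named EPOP, an elongin-binding subunit, with log2 ratios of -0.46, -0.52 and -0.10 (mean -0.36, adjusted p = 0.0352). MTF2, PHF19 and AEBP2, which help the enzyme to its sites, had means of 0.10, -0.08 and -0.08 and did not pass.

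Of 28 other subunits of complex 1, 4 were lower and 2 were higher, which was 7 and 3 at an unadjusted p, with a median of -0.06. RING1, the ligase that can replace RNF2, had log2 ratios of -0.26, -0.20 and -0.43 (mean -0.29, SE 0.06, adjusted p = 0.0226). The CBX reader CBX7 had -0.56, -0.33 and -0.10 (adjusted p = 0.0442), the polyhomeotic subunit PHC2 had -0.33, -0.18 and -0.26 (adjusted p = 0.0247) and FBRS had -0.27, -0.25 and -0.26 (adjusted p = 0.0174). For these 3 genes the less bright kept probe was nearer to 0, at -0.0011 for CBX7, -0.03 for PHC2 and -0.08 for FBRS. BCOR, the corepressor of a variant complex 1, was higher at 0.30, 0.37 and 0.40 (adjusted p = 0.00878), but its second kept probe had a mean of -0.01. AUTS2, which is linked to a complex 1 form that activates genes, was higher at 0.36, 0.11 and 0.25 (adjusted p = 0.0448) and turned to -0.05 under median centring, 0.18 above the median of all genes. PCGF1, PCGF2, PCGF3, PCGF5 and PCGF6, the alternatives to BMI1, did not pass and had means from -0.18 to 0.16.

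Enzymes that oppose Polycomb marks were listed together with other proteins, such as ASXL1, FOXK1, HCFC1 and OGT, that do not remove these marks. Of the 12 genes of this mixed list with a probe, 10 were tested, and the median was -0.03. In limma 2 were lower and none was higher (4 and 0 at an unadjusted p under 0.05). BAP1, the enzyme that takes ubiquitin off histone H2A, had log2 ratios of -0.51, -0.34 and -0.47 (mean -0.44, SE 0.06, adjusted p = 0.00712), the lowest mean of this list. HCFC1, its partner, had -0.23, -0.24 and -0.32 (adjusted p = 0.0183), and its mean of -0.27 compares with -0.79 by Feature Extraction and in the deposited table. KDM6A, a demethylase of lysine 27, had -0.07, -0.36 and -0.29 and missed the threshold (adjusted p = 0.0563), and KDM6B was not well above background.

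The E2F, RB and MYC group was listed as possible regulators of EZH2. Of its 10 genes 4 were lower and 1 was higher in limma, against 8.70% and 4.77% of all genes. At an unadjusted p under 0.05 these were 5 and 1, and the median was -0.10. E2F5 had log2 ratios of -0.41, -0.45 and -0.44 (mean -0.43, SE 0.05, adjusted p = 0.00619) and E2F4 had -0.31, -0.38 and -0.23 (adjusted p = 0.0150), and both are textbook repressor E2Fs. Feature Extraction gave wider means of -0.71 for E2F5 and -0.71 for E2F4, as did the deposited table, at -0.70 and -0.71. MYC had -0.24, -0.48 and -0.29 (adjusted p = 0.0168). TFDP1, the dimer partner of E2Fs, had -0.18, -0.55 and -0.25 (adjusted p = 0.0336), while its second kept probe had a mean of 0.06. The activator E2F2 was higher at 0.23, 0.40 and 0.20 (adjusted p = 0.0242) and turned to -0.07 under median centring, 0.16 above the median of all genes. E2F1 and E2F3, the other activators, had means of -0.07 and 0.02, and RB1 had -0.14.

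Because EZH2 RNA follows the cell cycle, 20 proliferation genes were set beside it. None was lower in limma (2 at an unadjusted p under 0.05) and 2 were higher, MCM3 at 0.24, 0.51 and 0.33 (adjusted p = 0.0157) and TYMS at 0.36, 0.30 and 0.32 (adjusted p = 0.0100), of which TYMS turned to -0.003 under median centring, 0.22 above the median of all genes. The list had a median of -0.04 and means from -0.29 to 0.36. MKI67, the gene of the Ki-67 antigen, had a mean of 0.06, TOP2A -0.16, CCNB1 -0.06 and PCNA -0.02, none past the threshold.

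Genes reported as repressed by EZH2 in prostate cancer were examined as its downstream side. Of 20 with a probe, 16 were tested, 3 were lower and none was higher in limma (6 and 1 at an unadjusted p under 0.05), with a median of -0.10. CDH1, which encodes E-cadherin, had log2 ratios of -0.41, -0.14 and -0.28 (mean -0.28, SE 0.06, adjusted p = 0.0320). CDKN2A, the cell cycle inhibitor locus, had -0.29, -0.34 and -0.14 (adjusted p = 0.0307), and its second kept probe had a mean of -0.25. CDKN1C had the lowest mean of the list, at -0.60, but its arrays ran from -1.16 to -0.10 and it missed the threshold (adjusted p = 0.0568). DAB2IP and SLIT2 had means of -0.20 and 0.04 and did not pass.

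Among the 11 luminal markers 3 were lower and 1 was higher in limma, against 8.70% and 4.77% of all genes. At an unadjusted p under 0.05 these were 5 and 1, and the median was -0.23. TMPRSS2 had -0.37, -0.35 and -0.54 (adjusted p = 0.00809) and the keratin KRT8 had -0.38, -0.39 and -0.26 (adjusted p = 0.0112), with 0.05 and -0.22 at its less bright kept probes. KRT18, the pairing partner of KRT8, was higher at 0.18, 0.47 and 0.40 (adjusted p = 0.0185). KLK3, the gene of prostate-specific antigen, had a mean of 0.05 and did not pass.

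The calls outside the members were as open to the processing as that of RNF2. Of the 22 called genes of these lists, all 22 missed the threshold with the Feature Extraction ratios and with the deposited table, settings that called 0.0176% of all genes lower and none higher. Each passed in 3 to 9 of 11 alternatives. Without hairpins 1, 2 and 3 in turn, 2, 11 and 16 of them missed it. In these settings 11.6%, 3.76% and 1.51% of all genes were called lower and 7.53%, 2.62% and 0.944% higher. BAP1, E2F5 and KRT8 passed whichever array was left out. With the mean of all kept probes CBX7, PHC2, BCOR, FBRS, TFDP1 and KRT8 no longer passed, at adjusted p from 0.0538 to 0.145. Among the means nearer to 0 than by loess were those of KRT18 (0.12) and TYMS (0.21) with Feature Extraction, and of CBX7 (-0.20), PHC2 (-0.12), BCOR (0.19) and TFDP1 (-0.06) in the deposited table.

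How far the members depend on the processing can be seen gene by gene. Over the 10 members and 11 alternatives, 10 values changed sign, of which 4 came with median centring and 5 belonged to JARID2. EZH2 passed the threshold in 2 of 11 alternatives, as lower under median centring and as higher without hairpin 1, and its adjusted p ran from 0.0221 to 0.244. EZH1, BMI1, RBBP4, RNF2 and CBX2 kept a mean below 0 in all 11.

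**Figure D4:**
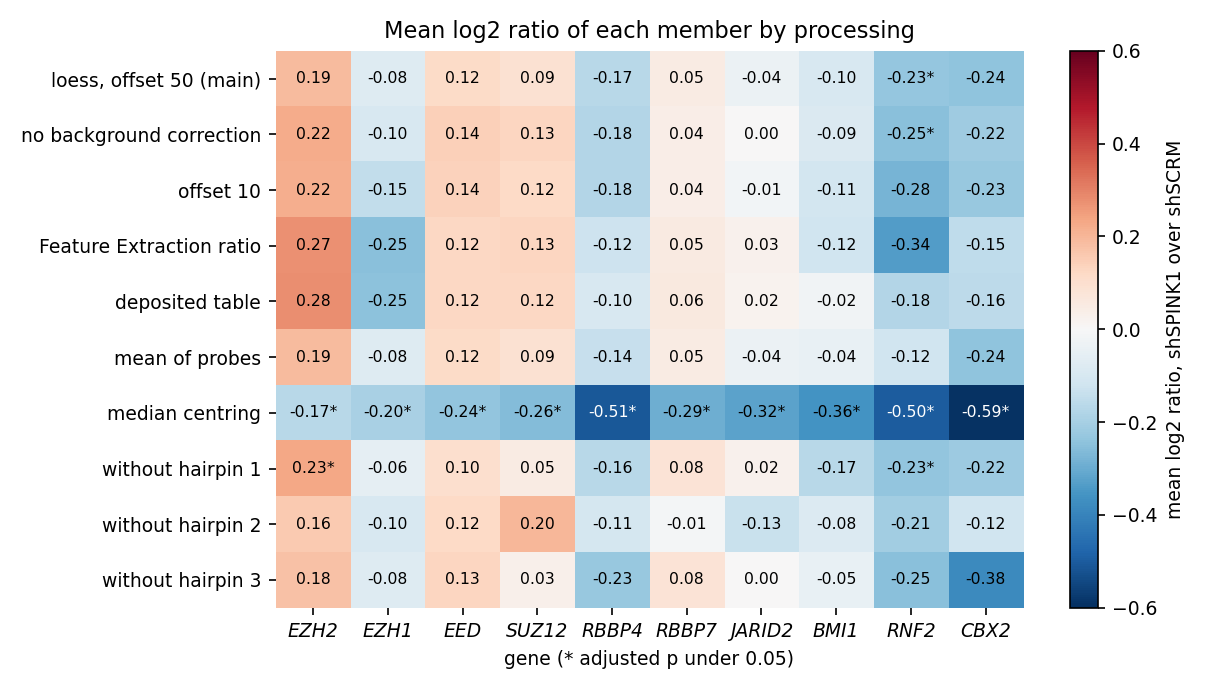
Mean log2 ratio of shSPINK1 over shSCRM cells for the 10 Polycomb genes (columns) under the main processing and 9 alternatives (rows), with color and printed value for the mean and an asterisk for an adjusted p under 0.05. Median centring shifts every member below 0, and apart from it asterisks stand only at RNF2 in the main processing, without background correction and without hairpin 1, and at EZH2 without hairpin 1.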

How the data were processed

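RNA of 22RV1-shSPINK1 and 22RV1-shSCRM cells had been hybridised to 3 two-color arrays from Agilent. The authors deposited scanner files from Feature Extraction 11.5.1.1, with the intensity of each spot and its local background in each channel, not normalized, and a log10 ratio of processed Cy5 over Cy3. The authors also deposited a table with 1 log2 ratio per gene name and array, for which the methods name Lowess normalization.

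All steps used R 4.3.3 and limma 3.58.1. The local background was removed by normexp (offset 50), dye differences by loess within each array, outlier spots (0.203% of values) were left out, and the repeat spots of each probe were averaged. Probes had to be well above background on every array in at least 1 of the channels, which left 21443 of 58201 probes. The brightest kept probe stood for its gene, which gave 17061 genes. Mean log2 ratios were tested against 0 with limma's moderated statistics, two-sided, and p-values were adjusted by Benjamini and Hochberg over all genes. The threshold was 0.05. The fit was tested on simulated data in which 200 of 17061 genes had been shifted by a log2 ratio of 1. It called 92.5% of these and made 3 false calls. The member means, from -0.24 to 0.19, were smaller than that shift, so this does not show how often changes of their size would be called. No gene spot was saturated, and the number of arrays limits the precision. Labels do not say that the 3 lines came from separate transductions, so p-values measure the spread between these arrays, which may in part be technical.

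Alternatives were no background correction, an offset of 10, median centring, the Feature Extraction ratios, the deposited table, other probe filters and summaries, a size limit of 0.5 and leaving out each array. The comparison of 2 probes of a gene and the counts at unadjusted p were chosen after seeing the data. Named genes were the members with every probe, SPINK1, up to 6 called genes of each other list, and the 3 called genes nearest to EZH2, of which a few are not reported here. Genes that did not pass and are named with their means were chosen for their roles, after values were seen. The members and lists were chosen with earlier results of these data known. Sequences of promoters came from RefSeq tables (GRCh38.p14), and probe sequences and positions (hg19) from the scanner files.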

Additional observations from a re-analysis of the deposited data

How the results depend on the processing

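The count of members called lower was 1 (RNF2). It was 0 with an offset of 10, with the Feature Extraction ratios, with the deposited table, with the mean of the kept probes and when every probe of a member had to pass, and beyond 0.5. It was 2 when any probe sufficed (RBBP4 and RNF2) and 10 with median centring. Leaving out 1 array gave 0 to 1. The count called higher was 0 and ran from 0 to 1 when 1 array was left out, the 1 being EZH2 without hairpin 1. Of all genes, 7.53% were called higher without hairpin 1, against 4.77% with all 3 arrays. Without hairpins 2 and 3 these shares were 2.62% and 0.944%. Values that changed sign were those of JARID2 (0.0025 without background correction, 0.0258 with Feature Extraction, 0.0233 with the deposited table, and -0.1344 to 0.0249 when 1 array was left out), those of EZH2 (-0.17), EED (-0.24), SUZ12 (-0.26) and RBBP7 (-0.29) with median centring, and that of RBBP7 when 1 array was left out (-0.0112 to 0.0807). The cause was not tested. Of the other values over members and alternatives, 88 kept their sign and their side of the threshold, 6 came to pass it and 6 no longer did. No paired analysis was possible because there is 1 group, in which each array is already a ratio to the control. A block for slide or scan was not run, since there was 1 of each. Dim probes such as those of EZH1 and the BMI1 junction limit what could be detected, since the offset draws their ratios towards 0.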
